A study of Mus musculus with 8 samples.

Results

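The pre-B and immature B small RNA libraries of mouse bone marrow were compared miRNA by miRNA. Each library held RNA pooled from 3 mice, female wild-type C57BL/6 animals of 8 to 10 weeks. Live cells were sorted, pre-B cells as B220+IgM-CD43- and immature B cells as B220+IgM+CD43-, and the pro-B (B220+IgM-CD43+) and mature B (B220hiIgM+CD43-) libraries are given beside them. The gates separate pre-B from immature B cells by surface IgM alone and use no lineage marker beyond B220. The study asked how RNAs, miRNAs among them, differ along B-cell development. The miRNAs compared were the mouse miRNAs, those with the prefix mmu-, that had 50 or more tags over both libraries together, and 265 of the 671 mouse miRNAs met this. A tag is 1 sequenced small RNA, and CPM is the count of a miRNA per 1000000 mouse miRNA tags of its library. The compared miRNAs held 99.9% of the mouse tags of either library. The other 406 mouse miRNAs had fewer tags, and 75 of these had none in either library. At the limit of 50 tags, miR-450b-3p, miR-301b-3p and miR-1249-5p lay just inside with 50, 51 and 52 tags, and miR-467d-5p, miR-130a-3p and miR-3057-5p just outside with 48, 47 and 47.

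The libraries held 1444396 (pre-B) and 2106537 (immature B) mouse miRNA tags, so that 1 tag was worth 0.692 and 0.475 CPM. The pro-B and mature libraries held 768752 and 1060387. With 1 library per stage there is no replicate, and no difference below has a replicate check in these data. Each difference is a description of these libraries. The study reports that qPCR of selected miRNAs of this transition, in a new cohort of animals, matched its sequencing. Those qPCR values were not used here. Ratios carry exact 95% intervals from the tag counts (conditional binomial), which cover counting error only, since no molecular identifiers are described. Where a library had no tag, 3 tags were taken as its limit. The rRNA-depleted RNA libraries of the same stages carried the labels' marker mRNAs in part. Rag1 had 89.4 estimated counts in the pre-B library and 0 in the immature library, Ms4a1 (CD20) 10 and 227, and Igkc 38.1 and 129. The opposite held for Vpreb3, a pre-B marker with 70.8 and 101.8, and for Cd93, an immature marker with 44 and 21. Dntt and Igll1, which mark pro-B cells, were at 0 in both. The other pro-B markers were not all absent, with Il7r at 32 and 8, Kit at 2 and 0 and Vpreb1 at 0 and 2. Ighm, listed as an immature marker, was nearly level at 1717 and 1747.

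A miRNA is cut from a hairpin precursor whose arms can each give a mature strand, named 5p and 3p. It guides Argonaute proteins to mRNAs that pair with its seed, bases 2 to 8, and lowers their translation and stability. Strands with the same seed form a family with overlapping targets. Pre-B cells rearrange their light chain genes, and at the transition to the immature B cell the light chain is first displayed with the heavy chain as surface IgM. miR-150, miR-181, miR-142, miR-146a, miR-155 and the miR-17-92 cluster are known for roles in lymphocytes.

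The sequences below are those on which the comparison turns, with the seed in capitals, as listed by the authors in DNA letters, from miRNAs that also have an entry in the RefSeq table. First are abundant or strongly differing strands that were higher in the immature library.
miR-146a-5p: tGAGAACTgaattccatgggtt
miR-142a-3p: tGTAGTGTttcctactttatgga
miR-22-3p: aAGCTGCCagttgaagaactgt
miR-33-5p: gTGCATTGtagttgcattgca
miR-150-3p: cTGGTACAggcctgggggatag
miR-322-5p: cAGCAGCAattcatgttttgga
Next are strands that were lower there by large factors.
miR-199a-5p: cCCAGTGTtcagactacctgttc
miR-199a-3p: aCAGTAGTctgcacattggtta
miR-205-5p: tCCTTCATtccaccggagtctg
miR-216a-5p: tAATCTCAgctggcaactgtga
miR-204-5p: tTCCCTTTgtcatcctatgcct
miR-144-3p: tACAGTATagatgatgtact
miR-690: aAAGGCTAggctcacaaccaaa
The miR-99, miR-100 and miR-125 strands are shown because each seed recurs among lower miRNAs, with miR-351-5p as the strand of the second seed that was not lower.
miR-99a-5p: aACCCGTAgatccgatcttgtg
miR-100-5p: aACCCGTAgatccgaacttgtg
miR-99b-5p: cACCCGTAgaaccgaccttgcg
miR-125b-5p: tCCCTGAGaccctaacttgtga
miR-125a-5p: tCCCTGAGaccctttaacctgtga
miR-351-5p: tCCCTGAGgagccctttgagcctg
The most abundant strands follow.
miR-191-5p: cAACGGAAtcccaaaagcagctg
miR-181a-5p: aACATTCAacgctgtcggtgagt
miR-142a-5p: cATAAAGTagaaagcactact
miR-26a-5p: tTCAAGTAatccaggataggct

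Most miRNAs differed little between the libraries, and the larger differences were mainly towards lower levels in the immature library. Of the 265 miRNAs, 16 (6.04%) were 2-fold or more higher in the immature library, 40 (15.1%) were 2-fold or more lower, and the others lay within 2-fold. For 7 of the higher (2.64% of the 265) and 32 of the lower (12.1%) the whole counting interval lay past 2-fold. By any amount, 108 miRNAs (40.8%) were higher and 157 (59.2%) lower. With the libraries scaled by the median ratio of the miRNAs these counts were 132 and 133. The log2 ratio of immature to pre-B CPM had a median of -0.15, with quartiles of -0.57 and 0.26. Other ways of scaling the libraries moved all log2 ratios together by between -0.05 and 0.15, so values nearer to 0 than this have no sure direction. The lower miRNAs summed to 41159 CPM in the pre-B library and 6291 CPM in the immature library, and the higher miRNAs to 12058 CPM and 34509 CPM. Low counts made up much of both groups: 12 of the 16 higher and 31 of the 40 lower miRNAs had fewer tags than 1000 over both libraries. Some reached the tag minimum only through the library where they were higher, so that minimum largely set their direction. Examples among the lower are miR-204-5p, miR-30a-3p, miR-195a-5p, miR-5128 and miR-466f-3p. Examples among the higher are miR-5107-5p, miR-677-5p and miR-1249-5p. Arms and base composition were alike in both groups, with 9 5p and 7 3p strands among the higher and 19 and 16 among the lower, and a median GC content of 49.0% and 45.5%, against 47.8% in the miRNAs within 2-fold. CPM is a share of a library, so that in bulk RNA fewer cells carrying a miRNA and less of it per cell cannot be told apart.

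**Figure D1:**
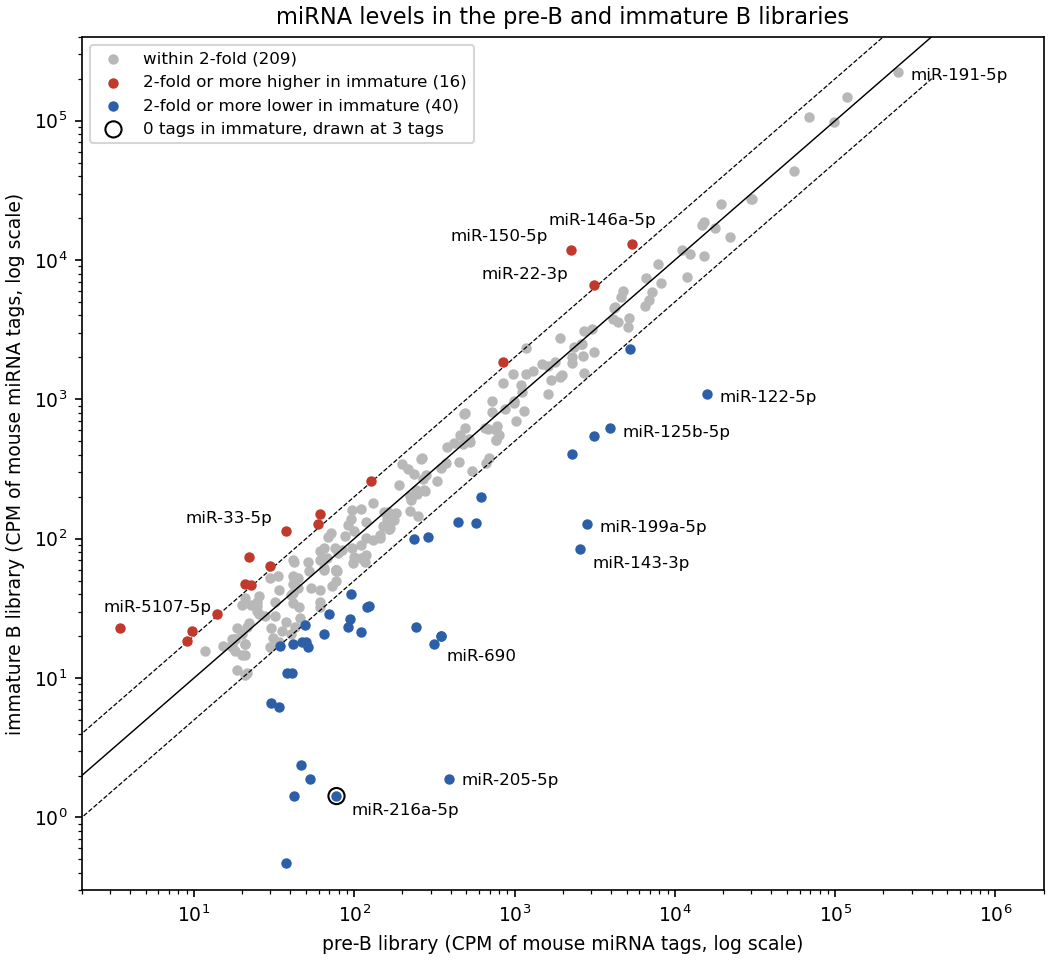
CPM of the 265 mouse miRNAs in the pre-B (x axis) and immature B (y axis) library, both on log scales, 1 point per miRNA, with the line of equal CPM and dashed lines at 2-fold. The 16 miRNAs above the upper dashed line include miR-150-5p and miR-146a-5p, and the 40 below the lower line reach miR-205-5p and miR-216a-5p, the latter with 0 tags in the immature library and drawn at 3 tags.

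Of the higher miRNAs, miR-150-5p, a miRNA of mature lymphocytes that targets Myb, was second only to miR-5107-5p in ratio and rested on many more tags than it. It had 3261 tags in the pre-B library and 25050 in the immature library, that is 2258 and 11892 CPM, beside 18036 CPM in the pro-B and 182070 CPM in the mature library. The immature library thus lay above the pre-B library and below both others. The ratio of immature to pre-B was 5.27 (5.08 to 5.46). Its other strand, miR-150-3p (chr7:45121798-45121819, plus strand, RefSeq positions on GRCm38.p6 here and below), had 32 and 155 tags, a ratio of 3.32 (2.26 to 5.02). The mRNA of Myb, which encodes a transcription factor of progenitors, had 280 estimated counts (15.5 FPKM, a level scaled to transcript length and library size) in the pre-B RNA library and 69 (4.20 FPKM) in the immature one. In the pro-B and mature RNA libraries it had 1189 (67.4 FPKM) and 21 (1.12 FPKM). The pro-B RNA library held 867920 mRNA counts and the pre-B RNA library 240231. In CPM of mRNA counts, Myb was at 1370 (pro-B), 1166 (pre-B), 309 (immature) and 24.7 (mature). Myb mRNA was thus highest in the pro-B library, but in CPM only slightly above the pre-B library. miR-150-5p was also above its pre-B level in the pro-B library.

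miR-146a-5p, which dampens Toll-like receptor signalling through Traf6 and Irak1, was at 6894, 5426, 13137 and 17046 CPM in the pro-B, pre-B, immature and mature libraries. Its ratio was 2.42 (2.36 to 2.48), from 7838 and 27674 tags. The immature library was closer to the mature than to the pre-B library. It lies at chr11:43374435-43374456 on the minus strand, outside the span of the other genes in the RefSeq table used. miR-146b-5p shares its seed and was level, with 868 and 858 CPM. Traf6 mRNA had 58 and 15 estimated counts in the pre-B and immature RNA libraries and Irak1 mRNA 4 and 16, so these known targets differed in opposite directions. miR-155-5p, induced in activated lymphocytes, had 133 and 263 tags, or 92.1 and 125 CPM.

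miR-22-3p, which has known roles in haematopoietic cells, was at 5231, 3114, 6638 and 10333 CPM in the order of the stages, and its ratio was 2.13 (2.06 to 2.20). miR-142a, the pan-haematopoietic miRNA, was higher on both strands. The 3p strand (chr11:87756903-87756925, plus strand) was at 554, 842, 1869 and 1240 CPM, a ratio of 2.22 (2.08 to 2.37), and was highest in the immature library. The 5p strand had a ratio of only 1.56 (1.55 to 1.58) but, at 68216 and 106667 CPM, the largest gain in CPM of all miRNAs. miR-33-5p, within the span of Srebf2 and known with it for cholesterol metabolism, had 54 and 240 tags, a ratio of 3.05 (2.26 to 4.17). miR-5107-5p had the largest ratio, 6.58 (2.63 to 21.2), but on 5 and 48 tags.

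For the other 9 higher miRNAs the counting interval reached below 2-fold. miR-322-5p, of the X-linked cluster of miR-322 and miR-503, had 88 and 318 tags and a ratio of 2.48 (1.95 to 3.17), and was the other miRNA with its highest level in the immature library, with 97.6, 60.9, 151 and 41.5 CPM over the stages. miR-21a-3p, the minor strand of a widely expressed miRNA within the span of Vmp1, had 30 and 100 tags. miR-677-5p, miR-28a-3p, miR-361-3p, miR-326-3p, miR-1249-5p, miR-32-5p and miR-342-5p had ratios between 2.01 and 2.25. Set beside the outer stages, the pre-B library was the lowest of the 4 for 12 of the 16 higher miRNAs, and the mature library the highest for 12. These comparisons use the same pre-B and immature libraries as the ratios themselves.

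**Figure D2:**
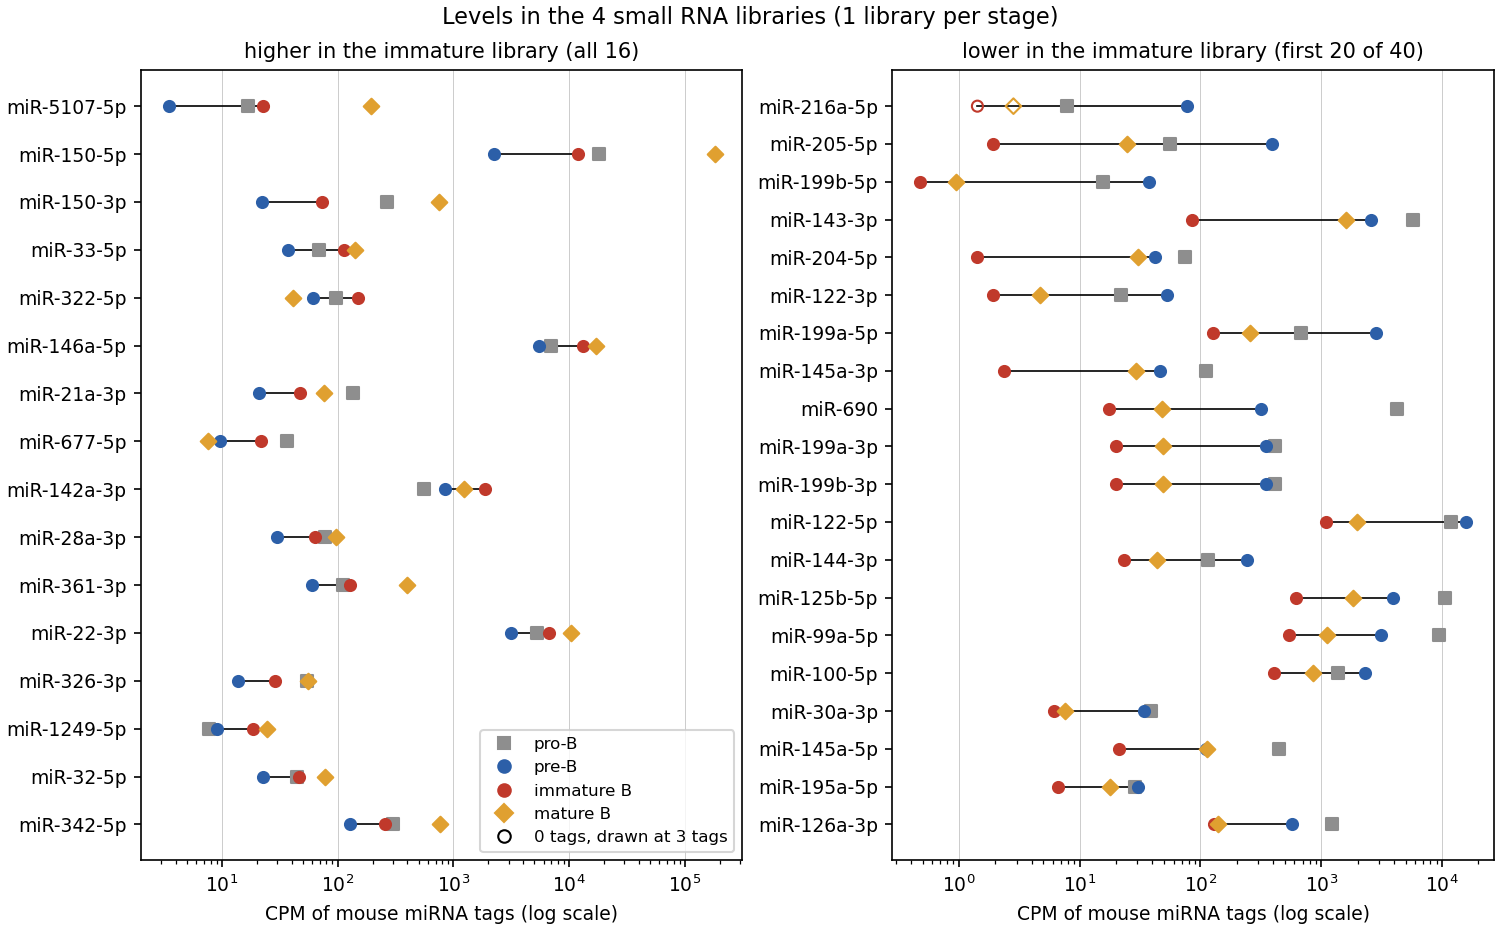
CPM in all 4 small RNA libraries (log scale, 1 library per stage) of the 16 higher miRNAs and of the 20 lower miRNAs with the smallest ratios, with a line joining the pre-B and immature values; open symbols are 0 tags drawn at 3 tags. miR-150-5p runs from 2258 to 11892 CPM on the line and to 182070 in the mature library, while miR-199a-5p is at 2836 CPM in the pre-B and 128 CPM in the immature library, with pro-B and mature in between.

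Among the lower miRNAs, most of the smallest ratios belonged to miRNAs known from cells other than B cells. miR-199a-5p, a miRNA of fibroblasts and other mesenchymal cells, had 4097 tags in the pre-B library and 270 in the immature library. Its levels were 679, 2836, 128 and 257 CPM over the 4 stages, so that the pre-B library stood above the rest and the immature library below it by a factor of 22.1 (19.6 to 25.1). The strand can come from loci at chr1:162217844-162217866 (plus strand, within the span of the noncoding Dnm3os, antisense to Dnm3) and chr9:21496537-21496559 (minus strand, antisense to Dnm2). The 3p strand had 500 and 42 tags, a factor of 17.4 (12.7 to 24.4), and since miR-199b-3p has the same sequence and the same counts, these tags are listed under both names. miR-199b-5p, with the seed of miR-199a-5p, had 54 tags and 1 tag.

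miR-143-3p and miR-145a, which come from neighbouring hairpins and are known from smooth muscle and stroma, were lower by different factors. miR-143-3p was at 5714, 2576, 84.5 and 1597 CPM, lower in the immature library by a factor of 30.5 (26.2 to 35.6). miR-145a-5p had 160 and 45 tags and miR-145a-3p 67 and 5, factors of 5.19 and 19.5. All 7 stromal miRNAs compared were thus 2-fold or more lower, against 15.1% of all, with a median log2 ratio of -4.29 against -0.15. Of the 10 stromal miRNAs listed, 3 had too few tags to be compared. miR-199b-5p and miR-145a-3p reached the tag minimum only through the pre-B library, so their lower calls were largely set by that minimum. The list was also chosen with earlier results known, so the contrast with 15.1% is a description only. The 7 hold 6 sequences, since the 3p tags of miR-199a and miR-199b are the same. With these counted once, their summed level was 5953 CPM in the pre-B and 257 CPM in the immature library, beside 7385 CPM (pro-B) and 2045 CPM (mature).

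miR-122-5p, the abundant miRNA of hepatocytes, was the lower miRNA with the largest share of a library. It had 22988 and 2299 tags, that is 15915 and 1091 CPM, a factor of 14.6 (14.0 to 15.2), beside 11954 CPM (pro-B) and 1972 CPM (mature). The pro-B and pre-B libraries were high and the other two low. The 3p strand had 77 and 4 tags. miR-216a-5p, known from pancreas (chr11:28757018-28757039, plus strand), had 112 and 0 tags. It was at least 43.6-fold lower by the exact interval, and 54.4-fold lower with its immature level set at 3 tags. miR-205-5p, of squamous and glandular epithelium (chr1:193507503-193507524, minus strand), had 567 and 4 tags, a factor of 207 (80.3 to 761), and 55.9 and 24.5 CPM in the pro-B and mature libraries. miR-204-5p, known from retina and kidney, within the span of Trpm3, had 61 and 3 tags. miR-122-3p, miR-216a-5p, miR-205-5p and miR-204-5p reached the tag minimum only through the pre-B library. Their lower calls were therefore largely set by that minimum.

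Of the 6 epithelial miRNAs compared, miR-205-5p and miR-200a-3p were past 2-fold and the median log2 ratio was -0.07. miR-200a-3p was at 123 and 32.8 CPM, but miR-200b-3p, from the same precursor region on chr4, was at 65.1 and 59.8 CPM, and miR-200c-3p at 110 and 164 CPM. The miR-200 strands therefore did not differ alike. miR-126a, of endothelium and haematopoietic progenitors, within the span of Egfl7, was lower on both strands, by 4.39 (3.82 to 5.04) for 3p and 3.73 (2.80 to 5.02) for 5p. Of 5 erythroid miRNAs, miR-144-3p (352 and 49 tags, a factor of 10.5) and miR-451a (68 and 38 tags, a factor of 2.61), neighbours at chr11:78073005-78073241, were past 2-fold, and miR-486a-5p was at 766 and 515 CPM. The granulocyte and monocyte miRNA miR-223-3p was nearly level, with 152 and 122 CPM.

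The miR-99, miR-100 and miR-125 group, expressed in haematopoietic stem cells and progenitors as well as in stroma, was lower throughout. All 5 compared strands passed 2-fold, with a median log2 ratio of -2.50. miR-125b-5p was at 10488, 3916, 621 and 1823 CPM over the stages, a factor of 6.31 (5.94 to 6.70). miR-99a-5p was at 9449, 3153, 543 and 1120 CPM and miR-100-5p at 1388, 2293, 404.5 and 859 CPM, with factors of 5.81 and 5.67. miR-99b-5p and miR-125a-5p, which lie together with let-7e within the span of Spaca6 on chr17, had smaller factors of 3.35 and 3.11. let-7e-5p was the only let-7 strand past 2-fold, with 132 and 49 tags. miR-351-5p, which has the miR-125 seed as printed above, was slightly higher, with a log2 ratio of 0.28, so that the seed did not mark the direction.

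miRNAs of the other-cell lists and of the miR-99, miR-100 and miR-125 group made up 21 of the 40 lower miRNAs and none of the 16 higher, out of 29 compared, against 15.1% lower and 6.04% higher over all 265. At 6.04%, few of 29 would be higher in any case. The lists were chosen and joined with earlier results known, so the excess of lower miRNAs may be partly built in. Of these, miR-205-5p, miR-216a-5p, miR-122-3p, miR-199b-5p and miR-145a-3p reached the tag minimum only through the pre-B library. The 21 hold the shared 3p tags of miR-199a and miR-199b under both names. With sequences listed under several names counted once, the summed level of the 29 was 49709, 35216, 4563 and 11340 CPM in the pro-B, pre-B, immature and mature libraries. Without them 236 miRNAs remained, of which 16 were higher and 19 lower, with a median log2 ratio of -0.08. Messenger RNAs of the same cell types were present in the rRNA-depleted libraries at other proportions. The 6 liver mRNAs, Alb among them with 514 and 460 estimated counts, summed to 2646 CPM of mRNA counts in the pre-B and 2501 CPM in the immature library. The 6 stromal mRNAs summed to 68 and 46 estimated counts, with Lepr and Cxcl12 at 0 in both, the 4 erythroid mRNAs to 49.4 and 17.2, the 3 endothelial mRNAs to 11.8 and 39.0, and the 4 epithelial mRNAs to 8 and 4. The part of other cells in the lower miRNAs was not tested.

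The 19 other lower miRNAs were of mixed kinds. miR-690 (chr16:28599940-28599961, minus strand, within the span of Fgf12) had 454 and 37 tags, a factor of 17.9 (12.8 to 25.7), and 4203 CPM in the pro-B library. miR-30a-3p, miR-195a-5p, miR-152-3p, miR-101a-3p, miR-10b-5p and miR-127-3p, an imprinted miRNA of the Dlk1-Dio3 locus and the only one of it with enough tags, had factors between 2.39 and 5.50. miR-182-5p and miR-96-5p, of the sensory-organ cluster of miR-183, miR-96 and miR-182, were past 2-fold with 94 and 44 tags and 50 and 36 tags, and miR-183-5p was at 61.6 and 32.3 CPM. miR-5099 was the one with the most tags, 7559 and 4834, a factor of 2.28 (2.20 to 2.36). An entry of the same name among those of other species, miR-5099-z, was outside the comparison. It had more tags, 10125 and 15275, and was level at a ratio of 1.03. Over all 40 lower miRNAs, the immature library was the lowest of the 4 for 35, the pro-B library the highest for 25 and the pre-B library the highest for 13.

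The most abundant miRNAs differed little. The 10 most abundant held 70.7% of the mouse tags of the pre-B and 73.0% of those of the immature library, and none was past 2-fold. miR-191-5p, within the span of Dalrd3, led both with 245768 and 223392 CPM, which was the largest loss in CPM at a ratio of 0.909 (0.905 to 0.913). miR-181a-5p, which sets signalling thresholds of lymphocytes, was at 119268 and 149011 CPM, and miR-26a-5p at 98497 and 97039 CPM. miR-92a-3p was at 55407 and 43237 CPM. Summed over all mouse miRNAs, 11.7% of the tags would have to be placed on another miRNA to turn 1 library's shares into the other's. The largest gains were those of miR-142a-5p, miR-181a-5p, miR-150-5p and miR-146a-5p, and the largest losses those of miR-191-5p, miR-122-5p, miR-92a-3p and let-7a-5p.

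**Figure D3:**
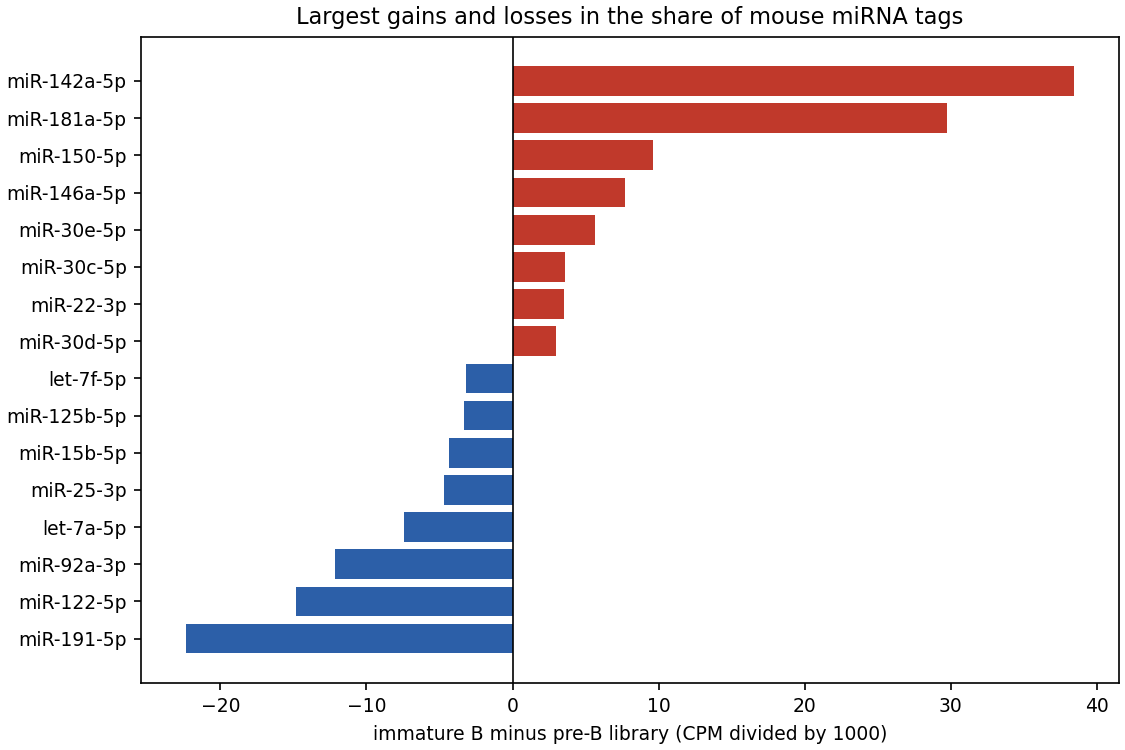
Difference in CPM (immature minus pre-B library, divided by 1000) of the 8 miRNAs with the largest gain and the 8 with the largest loss, as bars from 0. miR-142a-5p gained most and miR-191-5p lost most, although neither was past 2-fold; miR-150-5p, miR-146a-5p, miR-22-3p, miR-122-5p and miR-125b-5p were.

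Of the 12 let-7 strands, which repress Lin28b and growth genes, 9 were below 1 and the median log2 ratio was -0.28; their sum was 85281 CPM in the pre-B and 68231 CPM in the immature library. let-7a-5p had the largest difference in CPM of them, with 21933 and 14529 CPM. The miR-181 family, of 7 strands, summed to 141212 and 167783 CPM with none past 2-fold. miR-30 strands with the seed of miR-30e-5p were higher for miR-30b, miR-30c, miR-30d and miR-30e, up to a log2 ratio of 0.37, and lower for miR-30a-5p, at -0.93. The 2 miR-29 strands compared were at log2 ratios of 0.51 (miR-29a-3p) and 0.29 (miR-29b-3p).

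Strands of the oncogenic miR-17-92 cluster lay on both sides of 1, and miR-19b-3p and miR-92a-3p can also come from the related miR-106a-363 cluster of the X chromosome. miR-19b-3p and miR-19a-3p had log2 ratios of 0.63 and 0.53, miR-17-5p -0.46, miR-20a-5p -0.07 and miR-92a-3p -0.36. None of the 10 was past 2-fold, and the median log2 ratio was 0.18. All 6 strands of the related miR-106b-25 cluster, within the span of Mcm7, lay below 1, with a median of -0.44. The miR-15 and miR-16 family of cell-cycle regulators held 1 higher and 1 lower strand among 9. The 13 strands of the Sfmbt2 locus had a median of -0.37, with 1 past 2-fold (miR-466f-3p, 55 and 23 tags), and 5 of its miR-466 strands carried the same counts of 111 and 125. miR-221 and miR-222, known from progenitors, gave 3 strands with log2 ratios from -0.67 to -0.54. Among the 22 strands of miRNAs that have been studied one by one in B cells, 5 were higher and 4 lower, against 6.04% and 15.1% of all, and the median was 0.06. The higher include both strands of miR-150. The lower include miR-125b-5p and both strands of miR-126a, which were already counted with the lists above.

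**Figure D4:**
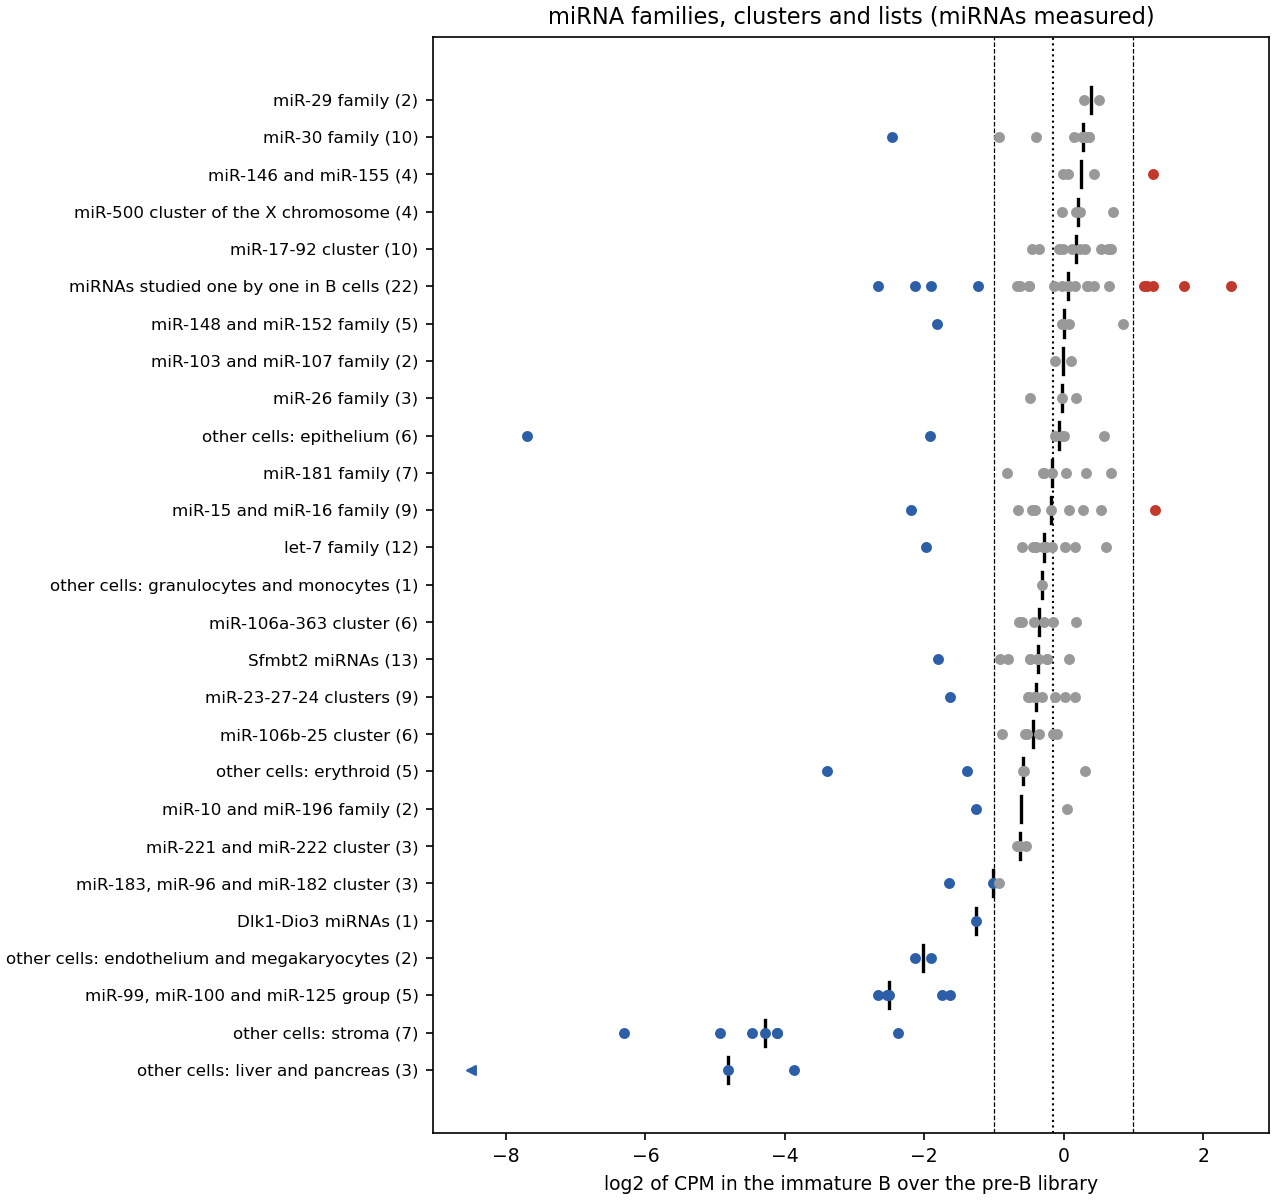
log2 ratio of immature to pre-B CPM of each miRNA (points, coloured past 2-fold) by family, cluster or list, with the number compared in brackets, the median of the list as a black bar, the median of all 265 (-0.15) as a dotted line and 2-fold as dashed lines. The stroma, liver and pancreas, endothelium and miR-99, miR-100 and miR-125 lists lie wholly below -1, while let-7, miR-17-92, miR-181 and miR-26 strands lie mostly between -1 and 1; the arrowhead is miR-216a-5p with 0 tags in the immature library.

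The 265 miRNAs had 204 seeds, of which 32 occurred in 2 or more miRNAs and covered 93. A pair of these seeds held miRNAs past 2-fold in both directions. The seed ATTGCAC belonged to miR-32-5p, higher with 33 and 98 tags, and to miR-92b-3p, lower with 60 and 37 tags, while miR-92a-3p and miR-25-3p carried nearly all tags of that seed, which summed to 72442 and 55306 CPM. The seed AGCAGCA belonged to miR-322-5p, higher as given above, and to miR-195a-5p, lower with 44 and 14 tags, and its sum of 23246 and 19744 CPM came mainly from miR-15 and miR-16.

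Of 62 hairpins with both strands compared, 42 had both on the same side of 1, and 6 had both past 2-fold in the same direction, namely miR-150 upwards and miR-122, miR-126a, miR-145a, miR-199a and miR-199b downwards, the last pair with the same 3p tags. The strands differed by a median of 0.40 on the log2 scale and by 1 or more for 8 hairpins. In miR-191, the 5p strand was nearly level, whereas the 3p strand, with 339 and 210 tags, was lower by a factor of 2.35 (1.98 to 2.81). In miR-27b the 3p strand was at 29819 and 27259 CPM and the rare 5p strand at 51.2 and 16.6 CPM. In miR-342, within the span of Evl, the 5p strand was at 128 and 258 CPM and the major 3p strand at 4184 and 4502 CPM. miR-322 was 13.9% 5p in the pre-B library and 24.9% in the immature library. Of the neighbouring hairpins within 10 kb of each other, the group of miR-322, miR-503, miR-450 and miR-542 at chrX:53047997-53054349 had a median log2 ratio of 0.52 over 8 strands, or 0.44 over 10 with both miR-351 strands, which lie in the same span but have no hairpin in the table used. The median of miR-144 with miR-451a was -2.39.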

How the data were processed

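Small RNA of 18 to 30 nt was sequenced, with 1 library per stage and 3 mice pooled in each. The miRNA table deposited by the authors holds raw tag counts and TPM values, which relate them to all clean tags. Tags of other small RNAs were first discarded by the authors with GenBank 209.0 and Rfam 11.0. Tags were assigned to mouse miRNAs of miRBase 22, then to miRNAs of other species, and candidates were predicted with mirdeep2. The submitters' notes name Bowtie 0.12.2 and the build mm9 without a role. TPM served only to derive the clean tags of a library. The mRNA values used beside the miRNAs are estimated counts and FPKM, deposited by the authors from StringTie, and were not tested.

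Counts of mouse miRNAs were scaled to CPM of the mouse total of each library, with a minimum of 50 tags over both. With 1 library per stage no test was run. Ratios carry exact 95% binomial intervals and a floor of 3 tags, and 2-fold was the limit for counting. The interval code was tested on simulated data. The members, lists and rules were chosen with earlier results of these data known. Named are miR-150-5p and miR-199a-5p, the 10 most abundant, the 12 largest and 12 smallest ratios, the 8 largest gains and losses of CPM, and members of lists, among which examples beyond the most abundant were chosen after their values were seen. Sequences are the authors' entries for the 218 miRNAs matched by name in RefSeq (GRCm38.p6), which gave positions. The other 47 are named only. Alternatives changed the scaling (edgeR 4.0.16 TMM factors in R 4.3.3 among them), the tag minimum, the fold limit and the rows counted. Python 3.11.15 with pandas 2.3.3 and scipy 1.17.1 was used.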

Additional observations from a re-analysis of the deposited data

Results flagged for a closer look

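Beside the mouse miRNAs, 145 entries named after miRNAs of other species had 50 or more tags over the pre-B and immature B libraries, and they lie outside the comparison above. Of these, 11 were 2-fold or more higher and 34 lower in the immature library, and 74 contain or are contained in the sequence of a mouse miRNA. Together they held 156632 CPM and 143561 CPM, relative to the mouse total. The most abundant, miR-92-y, had 57932 and 91388 tags. miR-143-y had 312 and 4 tags and miR-125-x 325 and 11 tags.

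Among the predicted candidates, 4 had 50 or more tags, of which none was 2-fold or more higher and 3 were lower, with 160 and 69.8 CPM together.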

How the results depend on the processing

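The counts of 16 higher and 40 lower miRNAs depended mainly on the tag minimum and the fold. With 10 or more tags they were 43 and 72 of 395 miRNAs, with 500 or more 5 and 15 of 128, and with no minimum and 0.5 added to each count 121 and 140 of 596. At 1.5-fold they were 32 and 66, and with the whole interval past 2-fold 7 were higher. Without the miRNAs of the other-cell lists and the miR-99, miR-100 and miR-125 group, an alternative chosen after seeing the data, 19 were lower. The median log2 ratio of -0.15 was -0.0076 with median-of-ratios scaling and -0.031 with the total without the 10 most abundant. The TMM, clean-tag and all-tag scalings and the totals with rows of other species added or identical sequences counted once kept the counts within 1.5 times. For 69 miRNAs followed one by one, 523 of 620 values under alternatives lay within the counting interval of the main value, and 0 of 620 had a called ratio change sign. A change of sign was counted only for ratios past 2-fold, although the 620 also hold miRNAs within 2-fold. The scalings moved log2 ratios by between -0.05 and 0.15, so under them this count could hardly differ from 0 and shows no robustness. No paired analysis was possible because each stage has 1 library, and for the same reason no replicate could be left out. Depth limits the miRNAs with few tags, since 3 tags were 2.08 CPM in the pre-B and 1.42 CPM in the immature library.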

Other observations

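let-7f-5p and miR-27b-3p are both listed with 57423 tags in the immature library, although they have 44002 and 43070 in the pre-B library, 23671 and 18985 in the pro-B library and 37468 and 9827 in the mature library. Of the 265 miRNAs, 11 share a sequence with another, over 5 sequences in all, and their tags are listed under each name. The Alb mRNA, which encodes the albumin of hepatocytes, had 772, 514, 460 and 508 estimated counts in the pro-B, pre-B, immature and mature RNA libraries. In CPM of mRNA counts it was at 889, 2140, 2058 and 598, so it was highest in the pre-B and immature libraries.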
